A study of Mus musculus with 10 samples.

Results

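The genes described here encode subunits of the mitochondrial respiratory complexes II, III, IV and V, together with cytochrome c, the small carrier that passes electrons from complex III to complex IV. They were taken by gene symbol from a list of 44 names: 4 for complex II, 10 for complex III, 1 for cytochrome c, 13 for complex IV and 16 for complex V. Of these 44, the authors' deposited table lists 40 among its 13661 genes, 35 of 38 encoded in the nucleus and 5 of 6 encoded in mitochondrial DNA. Sdhd, Uqcr11, Cox7a2 and the mitochondrial ATP8 are not among its rows and were not analysed here. The comparison was between the cerebral cortex of male wild-type mice (WT) and of male mice carrying a Chd8 knock-in allele (KI), the latter made as a model of duplication of the autism-related gene that encodes the chromatin remodeller CHD8. There were 5 WT and 5 KI libraries of poly(A) RNA, each from a mouse at 8 weeks of age. The sources used here do not give the design of the allele, the cells in which it acts or the litters of the mice. Because cortex was taken whole, fewer cells of a type and less RNA per cell cannot be told apart.

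The respiratory chain moves electrons from NADH and succinate to oxygen. Complex II (succinate dehydrogenase) also works in the citric acid cycle, complex III (ubiquinol-cytochrome c reductase) reduces cytochrome c, complex IV (cytochrome c oxidase) reduces oxygen, and complex V (ATP synthase) uses the proton gradient built by the pumping complexes to make ATP. Cytochrome b of complex III, the core subunits of complex IV and part of the proton channel of complex V are encoded by mitochondrial DNA, whereas complex II is encoded wholly by nuclear genes. Neurons depend strongly on this pathway for the ATP spent on ion pumping and synaptic transmission.

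All fold changes, standard errors, mean counts and p-values below are those of the authors' deposited table, in which each gene has 1 value for the whole comparison. A level is the mean normalised count over all 10 libraries, and a change is the log2 fold change of KI over WT with its standard error (SE). Values of single libraries were not analysed here, so no spread between mice can be shown, and the depth of each library is unknown. Intervals are 95% normal intervals around the deposited log2 fold change. The header of the table does not name the direction of its fold change, which was taken as KI over WT since Chd8 then stands higher in KI (1.40-fold, interval 1.22 to 1.61). For Chd8 the authors' DESeq2 Wald test in the deposited table gave adjusted p = 0.0044. Every direction below rests on that reading. Among markers of neighbouring tissue, 3 of 11 listed for thalamus and 1 of 10 for meningeal fibroblasts had an adjusted p under 0.05. These were all lower in KI. Of the choroid plexus markers 0 of 8 had one, and over all 13660 tested genes the share was 0.0732%.

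No member had an adjusted p under 0.05 in the authors' deposited table, where 0.0732% of all 13660 tested genes did, and no member had an unadjusted p under 0.05, where 3.22% of all genes did. Every listed member had an adjusted p of 0.99986 (DESeq2 Wald test, the authors' deposited table). The values were nevertheless of 1 sign for most nuclear members: 33 of 35 had a log2 fold change below 0 and 2 had one above 0 (Atp5a1 and Atp5j2), whereas 48.4% of all tested genes were below 0. The nuclear median was -0.051 on the log2 scale, a KI level of 0.965 of WT, against 0.0025 over all genes. Short transcripts in general were low in this table. With the trend over transcript length removed, 23 of 35 nuclear members were below 0 and their median was -0.015. Of 122 other genes of like length and level, some of them also respiratory genes, 77.0% were below 0. The 5 mitochondrially encoded members were all above 0, with a median of 0.093. The interval of every listed member, 40 of 40, included 0.

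**Figure D1:**
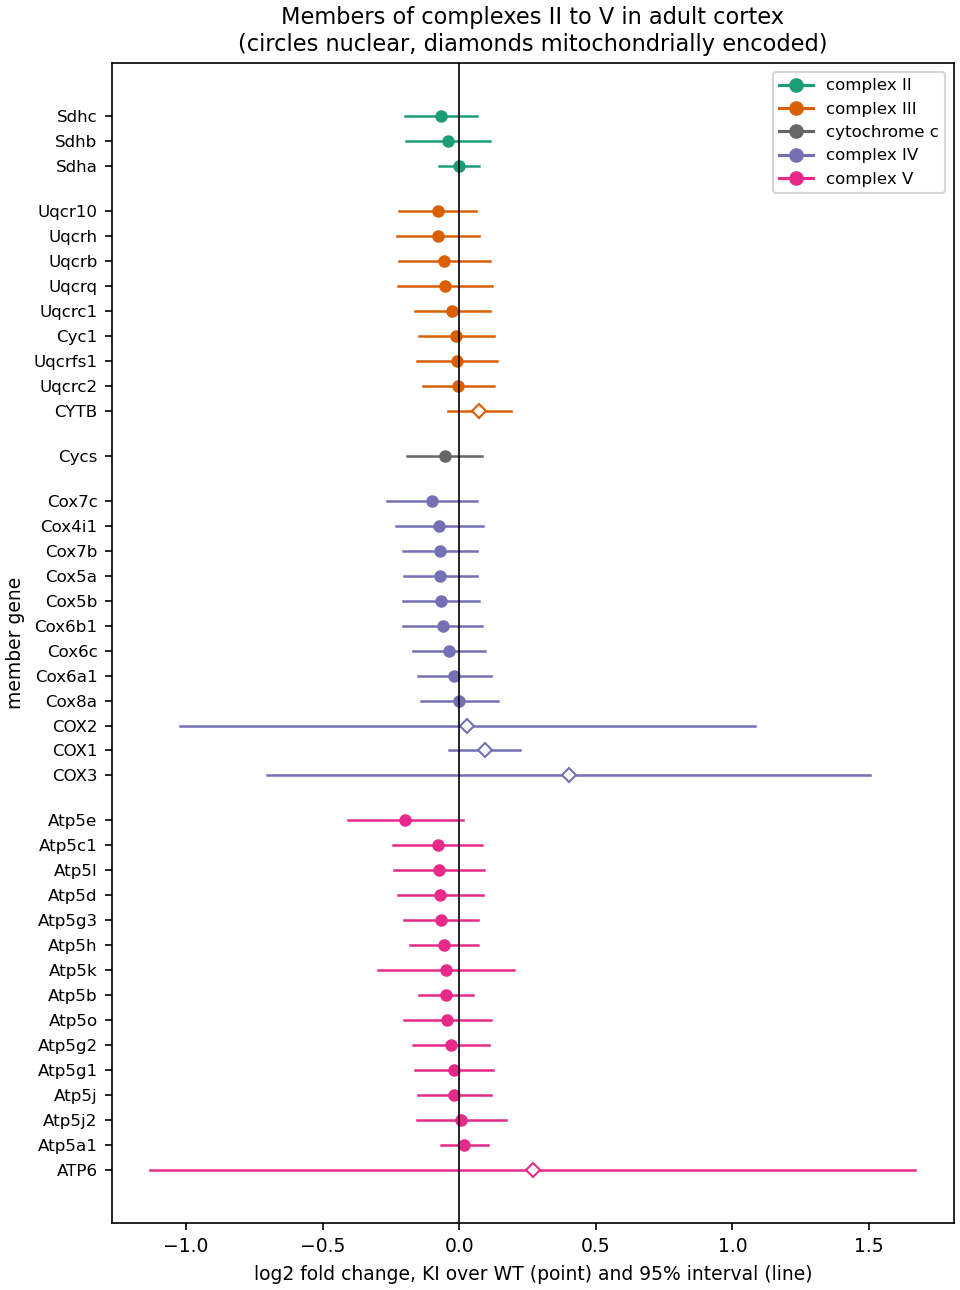
Log2 fold change of KI over WT (x axis) for each listed member (y axis), by complex, with points for the deposited value and lines for the 95% interval; circles are nuclear and diamonds mitochondrially encoded genes. All intervals cross 0, 33 of 35 circles lie left of it and 5 of 5 diamonds right of it, and COX2, COX3 and ATP6 have by far the longest lines.

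The nuclear members differed little among themselves. Their log2 fold changes ran from -0.20 to 0.019 with an SD of 0.039 across genes, below their median standard error of 0.072. Of the 35, 31 lay between -0.1 and 0 and 2 lay at -0.1 or lower, Atp5e and Cox7c. The interval of each nuclear member also included the nuclear median. These intervals bound how large a change could be: for 32 of 35 nuclear members the interval lay within ±0.25 on the log2 scale (0.841 to 1.19 of the WT level), and for 34 of 35 within ±0.3, shares that stand beside 54.9% and 66.3% of all genes. The exception at ±0.3 was Atp5e. The nuclear members had a median mean count of 1922, against 549 over all genes. The 1744 other genes between the quartiles of their mean counts had a median standard error of 0.059, below the 0.072 of the nuclear members.

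Complex II had 3 of its 4 genes in the table, and all 3 were below 0 (median -0.041). Sdha, the flavoprotein that oxidises succinate (chromosome 13, 74322255 to 74350240, GRCm38), had the highest level of the 3, a mean normalised count of 8522, and the authors' deposited table put its log2 fold change at -0.00023 (SE 0.037). Its interval, 0.951 to 1.05 of the WT level, was the narrowest of any member. Sdhb, the iron-sulfur subunit (chromosome 4, 140961271 to 140979198), had a mean of 2064 and a change of -0.041 (SE 0.078) in the deposited table. For Sdhc, a membrane anchor of the complex (chromosome 1, 171129157 to 171150640), the authors' deposited table gave a mean of 1828 and a change of -0.067 (SE 0.068, unadjusted p = 0.322). Of these 3 genes the catalytic Sdha thus stood closest to 0 and Sdhc farthest, by less than the standard error of Sdhc. The remaining gene of the complex, Sdhd, was not among the rows.

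In complex III the 8 listed nuclear subunits were all below 0, with a median of -0.038, and the mitochondrial CYTB was above it. The larger subunits were nearest to 0 in the authors' deposited table. These were Uqcrc2 at -0.0032 (SE 0.067) and Uqcrc1 at -0.026 (0.070), the core proteins, the Rieske iron-sulfur protein Uqcrfs1 at -0.0076 (0.074) and cytochrome c1, Cyc1, at -0.0099 (0.069). The small accessory subunits were lower in the same deposited table. Uqcr10 stood at -0.078 (0.072, unadjusted p = 0.277), Uqcrh, the hinge protein, at -0.078 (0.076), Uqcrb at -0.054 (0.085) and Uqcrq at -0.051 (0.088). The values of accessory and larger subunits did not overlap, but no difference between them was much larger than the SE of a member, and none was tested. With the trend over transcript length removed they did overlap, Uqcrb standing at -0.0090 and Uqcrc1 at -0.014. Uqcr10 (chromosome 11, 4701968 to 4704344) had a mean of 977 and a KI level of 0.947 of WT, with an interval of 0.859 to 1.04, in the deposited table. Cytochrome c itself, Cycs (chromosome 6, 50562563 to 50566569), had a mean of 1897 and a change of -0.054 on the log2 scale (SE 0.069, unadjusted p = 0.440) in the authors' deposited table.

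Complex IV had 9 of its 10 nuclear members in the table and all 9 were below 0, with the lowest nuclear median of the complexes, -0.066. With the trend over transcript length removed, 6 of the 9 were below 0. Cox7c (chromosome 13, 86044798 to 86046795), a small membrane subunit, had the lowest value, and the authors' deposited table put it at a mean of 1690, a change of -0.10 (SE 0.084, unadjusted p = 0.234) and a KI level of 0.933 of WT (interval 0.832 to 1.05). Next in that deposited table were Cox4i1, the largest nuclear subunit, at -0.074 (0.081), Cox7b at -0.071 (0.069), Cox5a at -0.069 (0.069), Cox5b at -0.066 (0.072) and Cox6b1 at -0.060 (0.074). These neighbours differed from each other by far less than their standard errors. Cox6c followed at -0.037 (0.067), Cox6a1 at -0.018 (0.068) and Cox8a at -0.00016 (0.072) in the authors' deposited table, and the interval of Cox8a ran from 0.907 to 1.10 of the WT level.

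Complex V had all 14 of its nuclear members listed, 12 below 0 and 2 above, with a median of -0.048. Among the subunits of the catalytic F1 head, the authors' deposited table put the alpha subunit Atp5a1 at 0.019 (SE 0.043), the catalytic beta subunit Atp5b at -0.047 (0.050), gamma, Atp5c1, at -0.078 (0.083) and delta, Atp5d, at -0.069 (0.079). The epsilon subunit Atp5e, a very small protein of the central stalk (chromosome 2, 174461075 to 174464101), was the lowest of all nuclear members: the deposited table gave it a mean of 1051 and a change of -0.20 on the log2 scale (SE 0.11), a KI level of 0.872 of WT with an interval of 0.754 to 1.01. Its unadjusted p, 0.0669 by the authors' DESeq2 Wald test, was the smallest of any member and ranked 605th among 13660 genes. Atp5b (chromosome 10, 128083307 to 128090388) had the highest level of any nuclear member, a mean of 23603, with an interval of 0.904 to 1.04 of the WT level in the deposited table. The alpha and beta subunits, which together form the head, stood on either side of 0 with overlapping intervals.

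The nuclear members of the membrane part and the peripheral stalk of complex V lay between -0.073 and 0.0071. The c ring, the rotor that protons turn, is built from a peptide encoded by 3 genes, and the authors' deposited table put Atp5g1 at -0.018 (SE 0.073), Atp5g2 at -0.030 (0.071) and Atp5g3 at -0.066 (0.069, unadjusted p = 0.337). Atp5g3 (chromosome 2, 73908447 to 73912464) had the highest mean of the 3, 3549, beside 1678 for Atp5g1 and 1076 for Atp5g2. In the peripheral stalk, which holds the head still, Atp5h stood at -0.056 (0.064), Atp5o, the oligomycin-sensitivity protein, at -0.043 (0.081) and Atp5j at -0.018 (0.068) in the deposited table. The small membrane subunits in the authors' deposited table were Atp5l at -0.073 (0.084), Atp5k at -0.050 (0.13) and Atp5j2 at 0.0071 (0.083). Atp5k, with a mean of 322, was the weakest member and had the widest interval of the nuclear ones.

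Between complexes, the nuclear medians of -0.041 (II), -0.038 (III), -0.066 (IV) and -0.048 (V) spanned less than the standard error of a typical member, which is not the error of a group median. No difference between complexes was tested because members share libraries and values of single libraries were not analysed here.

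Transcript length moved with these values. Across the 13100 genes with a transcript length, the log2 fold change in the authors' deposited table was higher for longer transcripts (Spearman correlation 0.236 across genes, which are not independent replicates). In the shortest of 20 equal bins, 72 to 1027 bases, the median over all genes was -0.045 and 70.8% were below 0, while in the longest bin, from 8338 bases, the median was 0.052 and 19.8% were below 0. The nuclear members are short, with a median of 838 bases against 3225 over all genes, and 22 of 35 fall in the shortest bin. Other genes between the lower and upper quartile of the nuclear members in both length and mean count numbered 122, of which 94 (77.0%) were below 0, with a median of -0.033. Only the members were left out of this set. It still holds other respiratory genes, such as Ndufb9, Ndufb10, Ndufs3, Ndufa9, Ndufa4 and Cox7a2l, which were below 0. After the median of each length bin was subtracted, 23 of 35 nuclear members were below 0 and their median was -0.015, so most of the shift of -0.051 was shared with other genes of the same length. By complex, the medians after subtraction were -0.015 for the 3 genes of complex II, -0.011 for complex III, -0.021 for complex IV and -0.016 for complex V, nuclear members only. In the same order, 2 of 3, 5 of 8, 6 of 9 and 9 of 14 were then below 0. Atp5e kept a value of -0.15, and Sdhc, Atp5c1 and Cox7c stood at -0.061, -0.066 and -0.055, while Atp5j2, Cox8a and Atp5a1 stood at 0.052, 0.045 and 0.029. Which property of short transcripts or of the libraries moves with length was not tested.

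**Figure D2:**
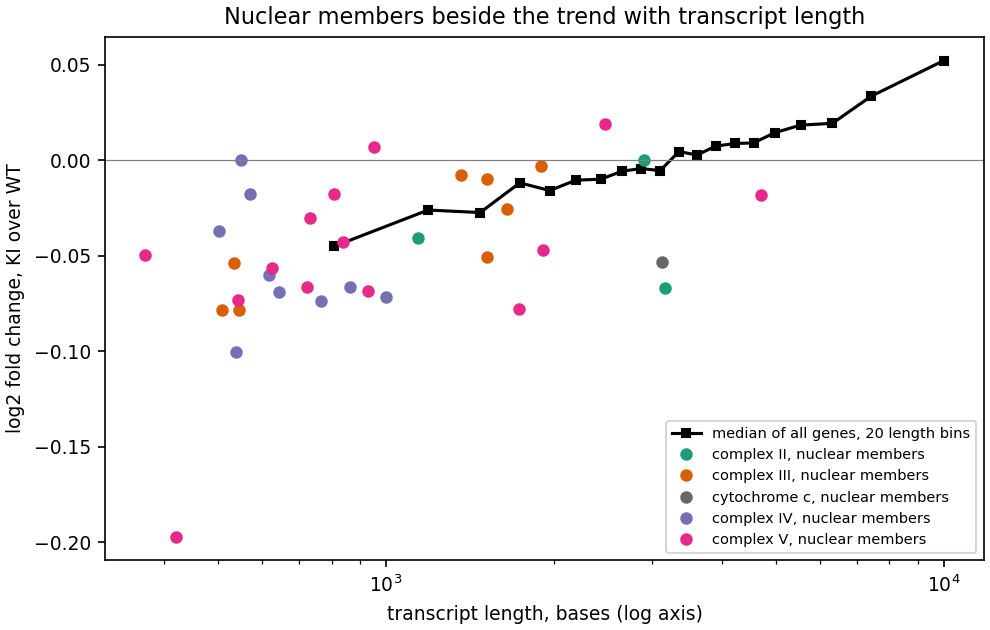
Log2 fold change of KI over WT (y axis) against transcript length in bases (x axis, log scale) for the 35 nuclear members (coloured points) and the median of all genes in each of 20 length bins (black squares, placed at the median length of the bin). The bin median runs from -0.045 to 0.052, and 23 of 35 members lie below the median of their own bin.

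The mitochondrially encoded members fell into 2 kinds by their levels and errors. COX1, the catalytic core of complex IV (mitochondrial bases 5328 to 6872), had the highest mean normalised count of all genes in the authors' deposited table, 325080, and CYTB, the ubiquinol-oxidising core of complex III (bases 14145 to 15288), the second highest, 126995. In KI over WT, COX1 stood at 0.093 on the log2 scale (SE 0.066, unadjusted p = 0.156) and CYTB at 0.074 (0.058, unadjusted p = 0.204). These are KI levels of 1.07 (interval 0.976 to 1.17) and 1.05 (0.973 to 1.14) of WT. In contrast, COX2 (bases 7013 to 7696), which receives electrons from cytochrome c, had a mean of 1529.8 in the deposited table, COX3 (8607 to 9390), another core subunit of complex IV, 850.1, and ATP6 (7927 to 8607), the proton channel subunit of complex V, 1589.9. Per kilobase of transcript, the level of COX1 in the authors' deposited table was 94.1 times that of COX2, 194 times that of COX3 and 90.1 times that of ATP6, but 1.90 times that of CYTB.

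The errors of COX2, COX3 and ATP6 were unlike those of other genes. In the authors' deposited table, COX2 stood at 0.029 on the log2 scale (SE 0.54), COX3 at 0.40 (0.56) and ATP6 at 0.27 (0.71). Intervals ran from 0.492 to 2.12 of the WT level for COX2, 0.614 to 2.84 for COX3 and 0.457 to 3.18 for ATP6, so a doubling could not be told from no change. Among the 4910 genes with a mean count of 500 to 2000, whose median standard error was 0.072, ATP6, COX3 and COX2 had the 3 largest. No sign can be read from these 3 values. Of the 5 mitochondrial members, only COX1 and CYTB had intervals within ±0.25, and both include 0.

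These 3 genes lie in a stretch of mitochondrial DNA that the reference nuclear genome also holds. In GENCODE M21 (GRCm38), COX2 aligned over 681 of its 684 bases to the pseudogene Gm28661 (chromosome 1, 24614885 to 24615565, minus strand) without a mismatch. ATP6 aligned over 678 of 681 bases to Gm10925 (chromosome 1, 24613974 to 24614651) and COX3 over 783 of 784 bases to Gm28437 (chromosome 1, 24613189 to 24613971), also at 100% identity. COX1 aligned in full to Gm13340 (chromosome 2, 22588103 to 22589647) with 37 mismatches in 1545 bases (97.6% identity), and over 492 bases to Gm29216 (chromosome 1, 24615706 to 24616197, beside the copy of COX2) with 6 mismatches (98.8%). The stretches below, bases 40 to 99 of each gene, show the identity of the first 3 with their nuclear copies and the differences between COX1 and Gm13340, its longer copy. Each is printed 5′ to 3′ on the strand of the gene, and capitals mark bases that differ between COX1 and Gm13340. For COX2, ATP6 and COX3 the nuclear copy is the same in every letter and is printed once.
COX2 and Gm28661: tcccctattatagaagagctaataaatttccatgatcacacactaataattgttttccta
ATP6 and Gm10925: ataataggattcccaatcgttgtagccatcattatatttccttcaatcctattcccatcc
COX3 and Gm28437: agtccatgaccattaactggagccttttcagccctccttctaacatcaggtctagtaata
COX1: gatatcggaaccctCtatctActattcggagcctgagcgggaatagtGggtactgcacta
Gm13340: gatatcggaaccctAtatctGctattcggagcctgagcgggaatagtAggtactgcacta

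Counted over windows of 100 bases, 99.5% of COX2, 99.9% of COX3 and 99.5% of ATP6 recur in a transcript of another gene, against 30.8% of COX1 and 0% of CYTB. Of the 446 shared windows of COX1, 380 recur in Gm29216. The mitochondrial subunits of complex I sort the same way in the authors' deposited table. ND3 (97.6% shared) and ND4L (98.5%) had means of 723 and 154, while ND1, ND2, ND4, ND5 and ND6, with 0% to 60.8% shared, had means of 102044, 72926, 71559, 79881 and 21546. All 5 mitochondrial genes above 97% shared had lower levels per kilobase and larger standard errors than all 7 others. ATP6 also overlaps ATP8 (7766 to 7969) and shares its last base with COX3 in the annotation. The sources used here do not give how reads with more than 1 place of alignment, or lying on more than 1 gene, were counted, so the levels of COX2, COX3 and ATP6 are uncertain, and the part of shared sequence in their errors was not tested.

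**Figure D3:**
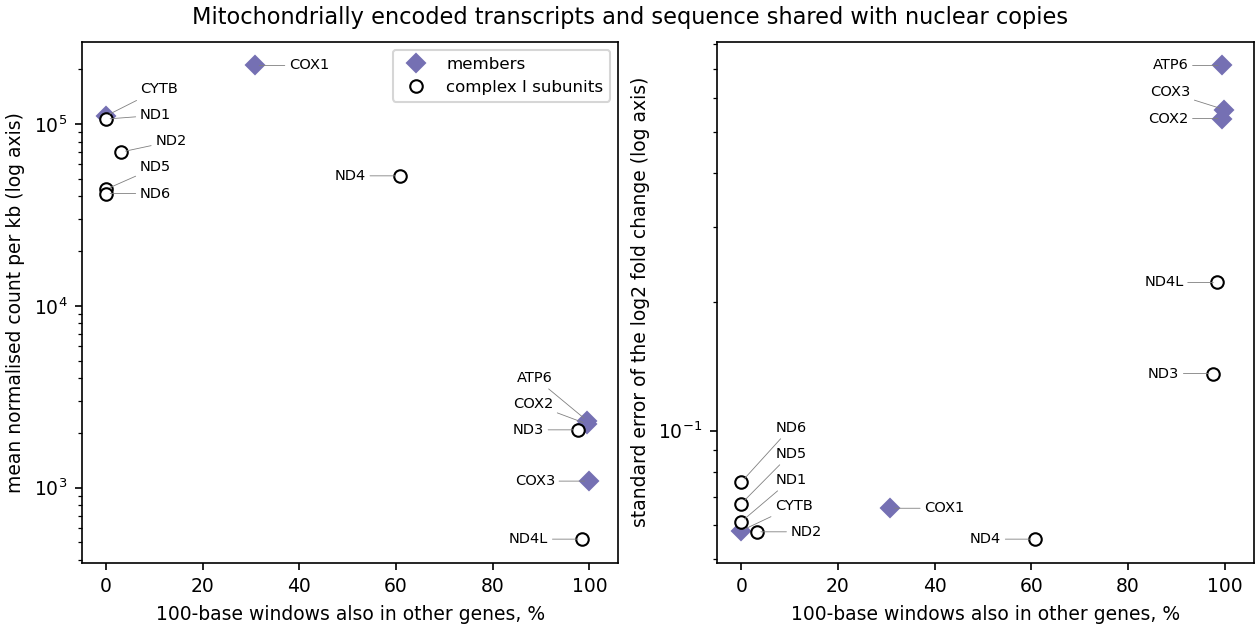
Mean normalised count per kilobase (left, log scale) and standard error of the log2 fold change (right, log scale) against the percentage of a transcript's 100-base windows that also occur in transcripts of other genes, for the 12 listed mitochondrially encoded genes (diamonds are the 5 members, circles complex I subunits). The 5 genes above 97% shared sit lowest on the left and highest on the right.

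Nuclear members share sequence too, with other annotated genes such as Gm10175 (Atp5g2), Gm10221 (Atp5l), Pdzd9 (Uqcrc2) and Emc8 (Cox4i1). Of the 35, 19 share no window of 100 bases with another gene's transcript and 5 share more than 25%: Atp5g2 (86.4%), Atp5l (69.0%), Cox7c (44.4%), Atp5h (32.7%) and Atp5o (30.3%). Reads of these 5 could be split or lost by the authors' counting, so their levels are uncertain. Their standard errors in the authors' deposited table, 0.064 to 0.084, were like those of other members. Without them 28 of 30 nuclear members were below 0, with a median of -0.050.

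Levels were compared per kilobase, since counts grow with transcript length. The nuclear median, 2376 mean normalised counts per kilobase, lay at the 96.7th percentile of all genes with a length in the authors' deposited table. By complex the nuclear medians were 1808 for II, 1931 for III, 3518 for IV and 2131 for V, with ranges that overlap. Atp5b (12319), Cox4i1 (10819), Cox6a1 (9331), Cox8a (8662) and Atp5a1 (7188) were the highest nuclear members on this scale in the deposited table, and Atp5g1 (356), Sdhc (577) and Cycs (608) the lowest. For Atp5g1 the annotated transcript paired with RefSeq is 4715 bases long, far longer than those of Atp5g2 (731) and Atp5g3 (723), which lowers its value per kilobase.

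**Figure D4:**
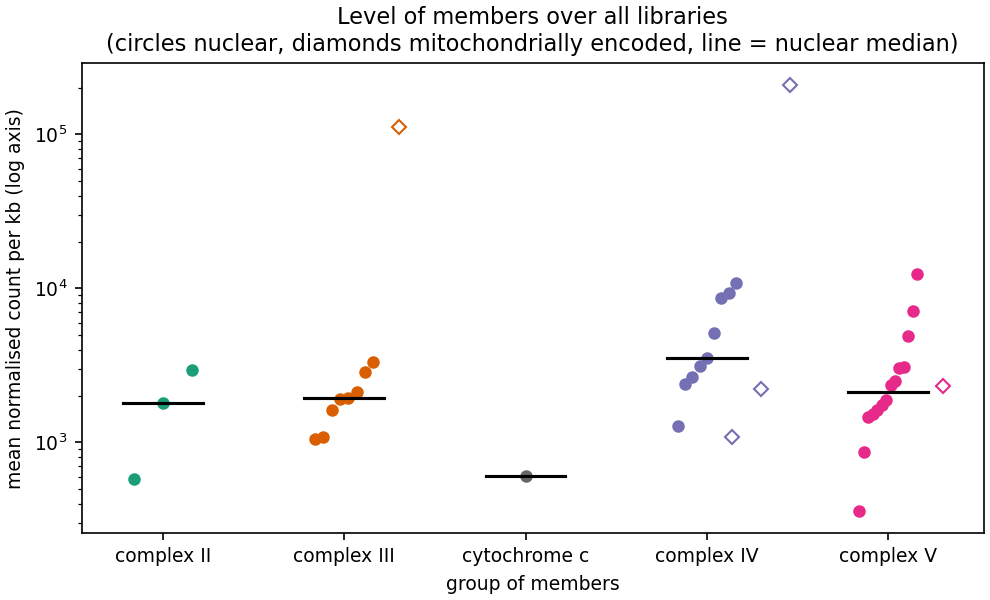
Mean normalised count over all libraries per kilobase of transcript (y axis, log scale) for each listed member, by complex (x axis); circles are nuclear genes, diamonds mitochondrially encoded genes, and black lines nuclear medians. Nuclear medians run from 608 for the lone cytochrome c gene to 3518 for complex IV, and COX1 and CYTB stand above all nuclear members.

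The promoters of respiratory genes are known for binding sites of NRF1, of ETS factors such as GABPA, and of YY1. Among the 35 listed nuclear members, 27 matched a window in the RefSeq promoter table (GRCm38.p6), which runs from 250 bases before to 50 after the start of the gene. The word TGCGCA, part of the NRF1 site and its own reverse complement, was in 6 of 27 windows (22.2%) and in 14.3% of the windows of all 10703 matched genes. CCGGAAG on either strand, an ETS word, was in 9 of 27 (33.3%) and 17.3% of all, and AAGATGG on either strand, a YY1 word, in 2 of 27 (7.4%) and 7.1% of all. The ETS and YY1 words can overlap by the letters AAG, and a match is a run of letters, not a shown site. Of the nuclear members with a window, the one with the smallest p in each complex is printed below to show the start regions beside the values above, from 250 bases before to 30 after the start, 5′ to 3′ on the strand of the gene, with the words in capitals. They are Sdhb (chr4:140961021-140961300, plus strand), Uqcr10 (chr11:4704315-4704594, minus), Cox7c (chr13:86046766-86047045, minus) and Atp5e (chr2:174464072-174464351, minus).
Sdhb: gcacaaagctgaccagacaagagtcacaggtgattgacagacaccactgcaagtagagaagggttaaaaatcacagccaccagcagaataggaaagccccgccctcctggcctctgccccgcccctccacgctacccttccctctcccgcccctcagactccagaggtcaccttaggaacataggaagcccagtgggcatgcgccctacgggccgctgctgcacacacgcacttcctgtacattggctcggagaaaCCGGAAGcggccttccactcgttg
Uqcr10: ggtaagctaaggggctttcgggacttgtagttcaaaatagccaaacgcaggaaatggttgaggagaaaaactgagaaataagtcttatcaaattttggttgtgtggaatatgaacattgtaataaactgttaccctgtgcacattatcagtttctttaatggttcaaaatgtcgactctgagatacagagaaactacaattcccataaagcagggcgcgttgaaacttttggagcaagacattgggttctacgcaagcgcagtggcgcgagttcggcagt
Cox7c: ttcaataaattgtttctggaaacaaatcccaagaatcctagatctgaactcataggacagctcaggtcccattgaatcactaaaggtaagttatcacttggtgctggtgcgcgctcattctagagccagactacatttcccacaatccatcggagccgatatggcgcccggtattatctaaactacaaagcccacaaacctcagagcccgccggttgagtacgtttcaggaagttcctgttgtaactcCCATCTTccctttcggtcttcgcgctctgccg
Atp5e: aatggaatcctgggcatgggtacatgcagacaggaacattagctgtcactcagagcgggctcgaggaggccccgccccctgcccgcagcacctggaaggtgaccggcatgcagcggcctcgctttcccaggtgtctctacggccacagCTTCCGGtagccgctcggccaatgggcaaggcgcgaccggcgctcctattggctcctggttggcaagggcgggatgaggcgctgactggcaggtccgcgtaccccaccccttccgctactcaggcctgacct

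Sdhb and Atp5e each hold 1 ETS word, on opposite strands, Cox7c holds 1 YY1 word and Uqcr10 holds none of the 3. Any of the 3 words was in 15 of 27 member windows (55.6%) and in 33.4% of all. Whether the words go with the log2 fold changes was not tested.

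Other genes of the pathway gave no adjusted p under 0.05 either. Further subunits and isoforms of complexes III to V were listed for 9 of 15 names, 8 of them below 0 (median -0.063, or -0.018 after removal of the length trend). The authors' deposited table put Atp5f1, the b subunit of the complex V stalk, at -0.079 (SE 0.063), Ndufa4, a subunit of complex IV despite its name, at -0.067 (0.083) and Atp5s, a factor of complex V, at -0.15 (0.092). Cox6b2, a testis isoform with a mean of 33.1, stood at 0.58 (0.26, unadjusted p = 0.0258) in the deposited table. Assembly factors were listed for 38 of 40 names, with 25 below 0, 13 above and a median of -0.040. After removal of the length trend 24 of 38 were below 0, with a median of -0.016. By complex their medians as deposited were 0.020 for 4 factors of complex II, -0.085 for 6 of complex III, -0.029 for 24 of complex IV and -0.017 for 4 of complex V. The smallest unadjusted p-values among them in the deposited table were those of Cmc1, a factor of complex IV, at -0.28 (SE 0.11, p = 0.0125), and Bcs1l, which inserts the Rieske protein into complex III, at -0.17 (SE 0.084, p = 0.0497), by the authors' DESeq2 Wald test. The deposited table also put Uqcc2 at -0.17 (0.098), Pet100 at -0.21 (0.13), Sdhaf4 at -0.15 (0.12), Sdhaf1 at 0.064 (0.11), Atpaf1, which helps build the F1 head, at 0.081 (0.084) and Tmem70 at -0.054 (0.092).

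Regulators of respiratory gene transcription were listed for 17 of 17 names, 12 below 0, with a median of -0.023. After removal of the length trend 11 of 17 were below 0, with a median of -0.039. In the authors' deposited table the nuclear receptor Esrra stood at -0.13 (SE 0.063, unadjusted p = 0.0414), Nrf1 at -0.13 (0.089), Gabpa at -0.14 (0.088) and the mitochondrial transcription factor Tfam at 0.039 (0.087). The 3 related coactivators did not share a sign there, with Ppargc1a at -0.069 (0.071), Ppargc1b at 0.20 (0.17) and Pprc1 at 0.13 (0.11). Mterf1, a mitochondrial termination factor (RefSeq Mterf1a, mean 44.8), stood at 0.52 (0.20) with unadjusted p = 0.00878 in the authors' deposited table (DESeq2 Wald test). It has a close paralog, Mterf1b, so its count is uncertain. Other abundant mitochondrial proteins, among them the channels Vdac1 to Vdac3, the carriers Slc25a3 to Slc25a5 and citrate synthase, were below 0 in 15 of 18, with a median of -0.023, and after removal of the length trend in 10 of 18, with a median of -0.0056. The deposited table gave Phb, a prohibitin of the inner membrane, -0.081 (0.070), the phosphate carrier Slc25a3 -0.047 (0.047), and Cs, citrate synthase, 0.013 (0.038).

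Complex I, which feeds electrons into the same chain, had 33 of 36 listed nuclear subunits below 0 in the authors' deposited table, with a median of -0.057, and after removal of the length trend 28 of 36, with a median of -0.024. Of its 7 mitochondrial subunits 1 was below 0, ND4L at -0.21 (SE 0.22), and their median was 0.076. Ndufb3 stood at -0.15 (SE 0.070, unadjusted p = 0.0293), Ndufc1 at -0.19 (0.098), ND4 at 0.076 (0.056) and ND3 at 0.37 (0.14, unadjusted p = 0.00629) in the authors' deposited table (DESeq2 Wald test). ND3 and ND4L are among the genes whose sequence is nearly all shared with nuclear copies, so their levels are uncertain. These values lie beside -0.051 and 0.093 for the nuclear and mitochondrial members of complexes II to V, so the order of nuclear below mitochondrial was the same. Behind the 0.093, COX2, COX3 and ATP6 have no readable sign, and the intervals of COX1 and CYTB include 0. No difference between complex I and the others was tested.

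**Figure D5:**
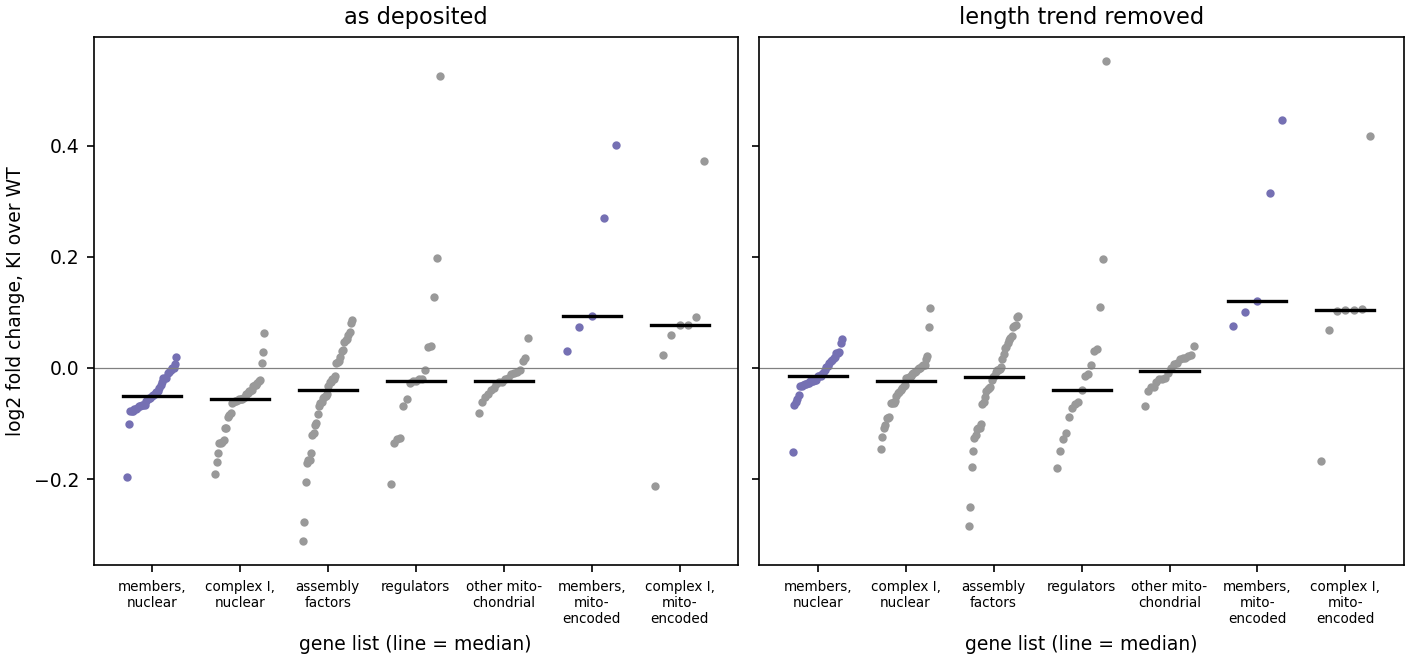
Log2 fold change of KI over WT (y axis) for each gene of 7 lists (x axis), as deposited (left) and after subtraction of the median of all genes of like transcript length (right); black lines are list medians, and members of complexes II to V are violet. The nuclear median of the members moves from -0.051 to -0.015 and the mitochondrial one from 0.093 to 0.12.

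Markers of cortical excitatory neurons were all listed (10 of 10), with means up to 28078 for Slc17a7, the vesicular glutamate transporter of cortex, in the authors' deposited table, and 9 of 10 were above 0 (median 0.052, Neurod2 at 0.15 and Slc17a7 at 0.062). With the length trend removed, 3 of these 10 excitatory markers were below 0 and their median was 0.043. Markers of neighbouring tissue and of other cells were present too. Thalamus markers had a median of -0.48 over 11 of 12 listed (9 below 0, summed mean count 3906), choroid plexus markers -0.26 (8 of 8 below 0, 25472), meningeal fibroblast markers -0.25 (10 of 10, 4807) and mature oligodendrocyte markers -0.079 (9 of 9, 120846) in the deposited table. The lowest p-values there were those of Tnnt1 (-1.34) and Tcf7l2 (-0.92) for thalamus, Kl (-0.40) and Enpp2 (-0.18) for choroid plexus, Igf2 (-0.29) and Fmod (-0.44) for meninges, and Cnp (-0.10) and Mog (-0.16) for oligodendrocytes. Of these 8, Tnnt1, Tcf7l2 and Igf2 passed the adjusted test, as did Prkcd of thalamus (-1.20). Astrocyte, microglia, endothelial and inhibitory neuron markers had medians of -0.0038, -0.0062, 0.0085 and -0.059. In the same order, 4 of 8, 6 of 9, 3 of 7 and 6 of 8 were below 0. In those 4 lists the authors' deposited table put Aldh1l1 at -0.13 and Slc1a2 at 0.11, C1qb at -0.17 and P2ry12 at 0.086, Slco1a4 at 0.14 and Ly6c1 at -0.12, and Pvalb at -0.15 and Dlx1 at -0.19. The lowest mean normalised count of any listed gene was 24.4, so a listed marker could not have a level of 0. Gbx2 of thalamus was not among the rows, and levels per group were not analysed here. The part of tissue makeup in the values of the respiratory genes was not tested.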

How the data were processed

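RNA-seq of adult cortex was analysed from the authors' deposited results table of the KI against WT comparison. Per the submitters' processing notes, the authors used Trimmomatic 0.39, HISAT2 2.1.0, featureCounts 2.0.0 and DESeq2 1.26.0 on mm10; the sources used here do not give settings, annotation, strand use or filters. Per the file headers, the authors' values are the mean normalised count (a signal value), the log2 fold change and its standard error, the score of the Wald test, and p-values before and after adjustment. The authors' own fits were used, with a threshold of 0.05 on the adjusted p. The authors' adjusted p-values equalled a Benjamini-Hochberg adjustment over 13660 genes.

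Symbols and coordinates came from RefSeq (GRCm38.p6), which named 13497 gene numbers. Lengths, for 13100 genes, came from the longest GENCODE M21 transcript paired with curated RefSeq, or the longest of all where none was paired. Mitochondrial genes were matched by coordinates. The length trend was removed by subtracting the median of 20 equal bins. Shared sequence was counted in windows of 100 bases over all GENCODE M21 transcripts, on both strands. Computation used Python 3.11.15 and pandas 2.3.3, and the adjustment and the trend removal were tested on simulated data. Members and lists were chosen with earlier results of these data known. All listed members are named, in full those with the 2 smallest p-values or the highest mean in each complex and every mitochondrial one, and of other lists the 2 with the smallest p; Atp5f1, Ndufa4, Nrf1, Gabpa, Ppargc1a, Ppargc1b, Pprc1, Tfam, Cs, Prkcd, Gbx2, ND4L and the genes named as sharing sequence were chosen after their values were seen. The labels' protocol gives each library as RNA of 1 mouse and does not say whether mice shared a litter.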

Additional observations from a re-analysis of the deposited data

How the results depend on the processing

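No paired analysis was possible because the table holds 1 value per gene for the whole comparison and no values of single libraries; for the same reason leaving out each replicate, other size factors and a refit with another filter on counts were not run. No member passed at adjusted p thresholds of 0.1 or 0.01, at an unadjusted p of 0.05, or among genes with a mean count of at least 200. These outcomes followed from the deposited p-values of the authors' DESeq2 Wald test. Every listed member had an adjusted p of 0.99986 there, and the smallest unadjusted p was 0.0669. The nuclear median ranged from -0.053 with the median of all genes subtracted to -0.015 with the length trend removed, and was -0.019 when length was taken from the longest transcript of all, an alternative added after seeing the data. The count of nuclear members below 0 fell by these last 2 settings from 33 to 23 and 25 of 35. Weighting by precision gave -0.039, and members with a mean count of at least 1000 gave -0.047. The mitochondrial median ranged from 0.074, CYTB alone being left when members with over 25% shared windows were dropped, to 0.13. The nuclear median kept its sign under each alternative, but the length trend cut it to less than the standard error of any member. All 5 deposited mitochondrial values were above 0, so dropping or weighting members could not change the sign of their median or mean. The standard error of a member is not the error of a median.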
